A study of Mus musculus with 18 samples.

Results

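The 71 genes described here encode the ligands and receptors that steer growing axons: semaphorins of classes 3 to 7, plexins, neuropilins, Eph receptors, ephrins, Slits, Robos, netrins and Unc5 receptors. They are every gene whose symbol belongs to these families among the 55421 genes of the deposited tables. The symbols also took in 3 antisense RNAs of Plxna4. RNA was measured in mouse kidney proximal tubules and in the cells that grew from them on tissue culture plastic. Wild-type female C57BL/6 mice of 6 weeks (C57BL/6J in the growth protocol) gave the tubules, which were freed with collagenase, enriched on Percoll, given no treatment and kept for up to 14 days without subculture. The 18 libraries form 6 groups of 3, lettered A to C: tubules taken as isolated (day 0) and cells after 1, 2, 4, 7 and 14 days in culture. The labels call the replicates biological but name no animal or culture for each, so a p-value reflects just how far these libraries spread, which may be technical.

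Guidance cues act between cells that touch or lie close together. Class 3 semaphorins, Slits and netrins are secreted, whereas ephrins and most semaphorins of the other classes sit on the cell surface, and the receptors turn the contact into changes of the actin cytoskeleton, attachment and movement. Epithelia use the same molecules, and in the developing mouse kidney Slit2 and Robo2 restrict where the ureteric bud grows out.

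Between 23799559 and 37579097 estimated counts were assigned to genes in each library. Members held 0.293% to 0.311% of the counts on day 14 and 0.121% to 0.126% on day 0. The 10 proximal tubule markers were all called lower on each culture day against day 0, and their summed level was 8.55 TPM (a length-scaled abundance) on day 14 and 9862 TPM on day 0. Tissue of this kind holds other cells, and in bulk RNA fewer cells of a type and less RNA per cell cannot be told apart. Sums of other nephron markers were lower too: the level was 12.02 TPM on day 14 and 2023 TPM on day 0 for loop of Henle, 31.2 TPM on day 14 and 924 TPM on day 0 for distal tubule, 165 TPM on day 14 and 799 TPM on day 0 for collecting duct principal cells, and 0.923 TPM on day 14 and 205 TPM on day 0 for intercalated cells. It was 66.6 TPM on day 14 and 149 TPM on day 0 for podocytes and 37.5 TPM on day 14 and 34.7 TPM on day 0 for macrophages. Yet of the 8 macrophage markers 1 was called higher and 4 lower on day 14, with a median log2 fold change of -2.93. For fibroblasts and pericytes the sum was 98.2 TPM on day 14 and 36.8 TPM on day 0, and of their 9 tested markers 3 were called higher and 5 lower. The part of these cells in the members' changes was not tested. Schwann cell and neuron markers, summed over the 6 genes of that list, lay between 0.770 and 2.39 TPM in every library. The range was 0.770 to 1.05 TPM on day 0 and 1.94 to 2.39 TPM on day 14. Of the 3 such markers tested, 2 were called higher and 0 lower on day 14. The library of day 7 replicate C stood apart: across the 62 members tested its log2 CPM correlated at 0.980 on average with the day 4 libraries and at 0.935 with day 14, against 0.944 and 0.985 for replicate A and 0.941 and 0.985 for replicate B. Member counts and some results of single genes are given with and without that library. Other results of single genes are given with it alone.

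Within single families, members moved in opposite directions in culture. The receptor Epha2 rose on day 1 against day 0 by 6.31 ± 0.38, while its relative Epha1 fell by 2.77 ± 0.24 (log2 with SE, edgeR adjusted p = 8.21e-10 and 4.18e-08). The secreted ligand Sema3c rose on day 14 against day 0 by 3.61 ± 0.14, and the membrane ligand Sema4a fell by 3.53 ± 0.20 (edgeR adjusted p = 3.86e-12 and 2.83e-10). Among netrin receptors Unc5b rose by 2.69 ± 0.20 and Unc5c fell by 6.51 ± 0.73 on day 14 (edgeR adjusted p = 5.29e-09 and 7.66e-07). A group of receptors and ligands, Ephb4 and Plxnb2 among them, was lower on day 1 and higher on day 14.

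CPM (counts-per-million) values are scaled with TMM factors, and CPM lists follow replicates A, B and C. Of the 71 members, 62 passed the filter on low counts and were tested among 18754 genes. An F test over the 6 days called 60 of the 62 at an adjusted p under 0.05 (edgeR's quasi-likelihood test with Benjamini-Hochberg adjustment, used for all adjusted p below), beside 89.8% of all genes tested. Plxnc1 and Unc5a, at up to 0.565 and 1.13 CPM, were the members not called. Against day 0, 20 members were called higher and 27 lower on day 1, beside 33.1% and 37.1% of all genes. On day 2 the counts were 23 higher and 19 lower, beside 38.9% and 35.3% of all genes. Day 4 gave 28 higher and 24 lower members, against a background of 38.1% higher and 36.8% lower. On day 7, 31 members were higher and 16 lower (37.6% and 32.1% of all genes), and on day 14, 31 were higher and 18 lower (37.4% and 32.1%).

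The members' median log2 fold change against day 0 was -0.41, 0.19, 0.50, 0.54 and 0.63 on days 1, 2, 4, 7 and 14, whereas that of all genes tested was -0.01, 0.14, 0.08, 0.16 and 0.16. With genes at 0 counts on a day set to the fold that a floor of 3 counts over 3 libraries allows, the members' medians were -0.25, 0.12, 0.36, 0.52 and 0.50. Scaling mattered: the share of higher calls among members' calls was 42.6%, 54.8%, 53.8%, 66.0% and 63.3% on the 5 days, 52.3%, 66.0%, 62.0%, 76.0% and 70.6% with library sizes alone. It was 54.3%, 72.2%, 77.1%, 87.2% and 82.9% with limma on log2(TPM + 1). The same shares of all genes' calls are not given here, so these are not read as a trait of the members. Library sizes alone raised the median of all genes by 0.30, 0.51, 0.49, 0.50 and 0.56 on the log2 scale and limma on log2(TPM + 1) by 0.35, 0.55, 0.61, 0.66 and 0.77, so the folds below are relative to the TMM scale. Tested against a fold of 2, smaller calls were lost, among them the day 14 calls of Ephb4, Plxnb1 and Plxnb2. Without day 7 replicate C the higher and lower counts were 21 and 27, 24 and 21, 28 and 26, 31 and 18, and 33 and 19. The shares of all genes in that fit are not given here, so these counts are not read as a trait of the members.

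Between successive days, day 2 against day 1 gave 17 higher and 9 lower members (17% and 17.5% of all genes), and day 4 against day 2 gave 20 higher and 11 lower (19.4% and 22.1%). On day 7 against day 4, 25 members were higher and 6 lower, beside 22% and 15.9% of all genes. On day 14 against day 7 only 3 members were higher and 4 lower, beside 5.07% and 7.46% of all genes. Without day 7 replicate C the counts were 20 and 13, 22 and 18, 27 and 10, and 5 and 4. Other libraries decided the lower counts too: 6 without day 2 replicate A on day 4 against day 2, 2 or 3 without replicate A or B of day 7 or day 4 on day 7 against day 4, and 1 without day 14 replicate A or B on day 14 against day 7. In the same order, the higher share of calls was 65.4%, 64.5%, 80.6% and 42.9%, with library sizes alone 76.7%, 64.5%, 81.2% and 50%, and with limma on log2(TPM + 1) 71.4%, 83.3%, 88.5% and 100%. All genes' shares are not given beside these, nor beside the counts with a library left out. Neither is read as a trait of the members.

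**Figure D1:**
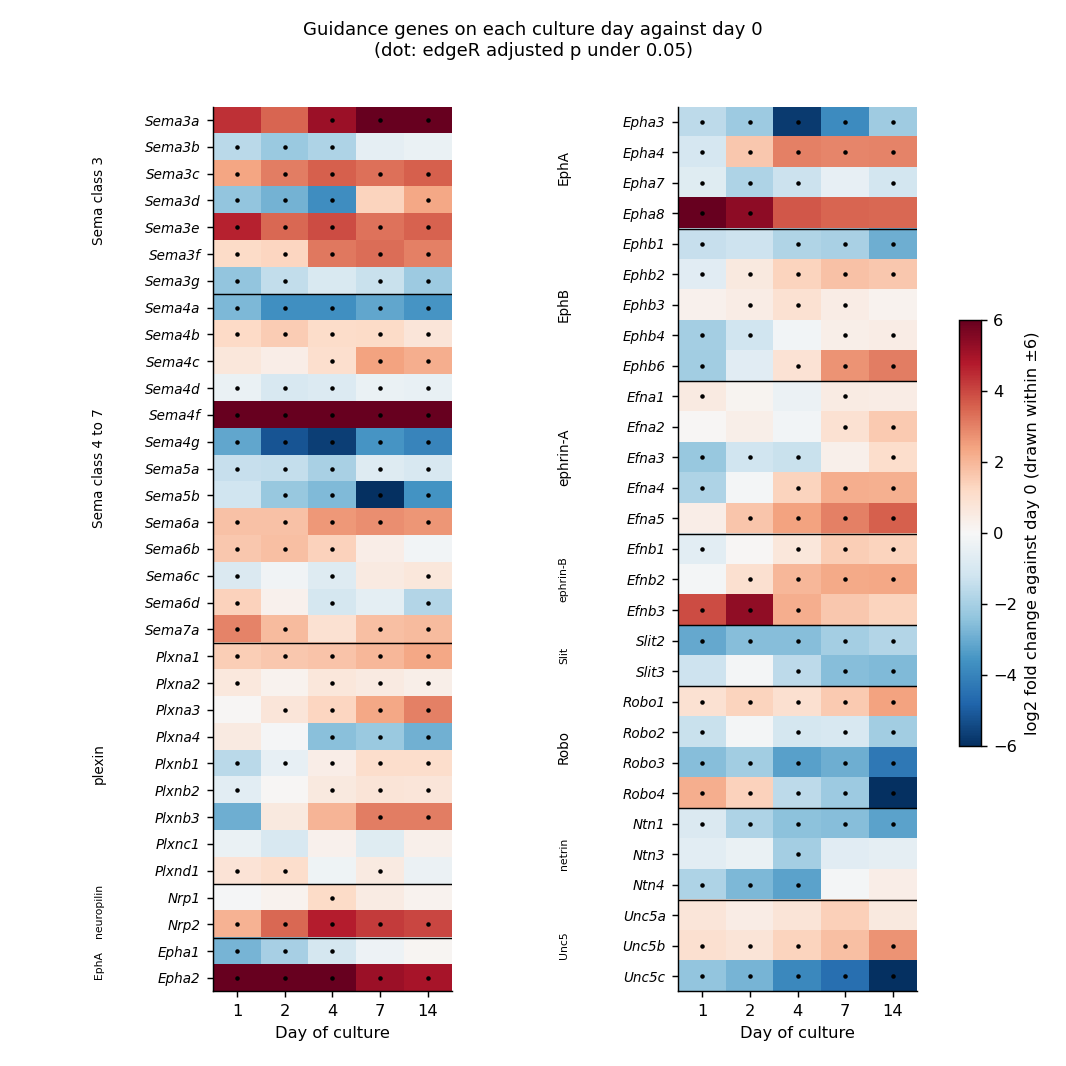
Log2 fold change of the 62 tested members on each culture day against day 0, by family, drawn within ±6, with a dot where the edgeR adjusted p was under 0.05. Rows that are blue on day 1 and red on day 14 stand beside rows of 1 colour throughout; the fitted folds of Sema3a, Sema4f and Epha8, which had 0 counts on day 0, depend on the prior count.

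Members moved along several courses. The 11 members called higher on all 5 culture days were Epha2, Nrp2, Plxna1, Robo1, Sema3c, Sema3e, Sema3f, Sema4b, Sema4f, Sema6a and Unc5b, which is 17.7% of the members tested beside 19.9% of all genes. The 9 called lower on all 5 days were Epha3, Ntn1, Robo3, Sema4a, Sema4d, Sema4g, Sema5a, Slit2 and Unc5c (14.5% beside 22.1%). A further 11 were lower on day 1 and higher on day 14: Efna3, Efna4, Efnb1, Epha4, Ephb2, Ephb4, Ephb6, Plxnb1, Plxnb2, Sema3d and Sema6c (17.7% of members, beside 4.47% of all genes). The opposite course, higher on day 1 and lower on day 14, was that of Robo4 and Sema6d (3.23% beside 2.00%). Without day 7 replicate C these 4 counts were 12, 12, 12 and 2, or 19.4%, 19.4%, 19.4% and 3.23% of members beside 20.1%, 22.9%, 5.81% and 2.64% of all genes. Leaving out 1 library ended the day 1 calls of Epha3 (without day 0 replicate B or day 1 replicate C), Epha4 (day 0 A or day 1 C), Ephb2 (day 0 C or day 1 B), Sema3d (day 0 B or day 1 C), Sema4d (day 1 A) and Robo1 (day 0 A, day 0 C or day 1 B). It also ended the day 4 call of Robo1 (day 0 C or day 4 A) and the day 14 calls of Efna3 and Sema6c (day 0 A for both). By mean CPM, 17 members were highest on day 0 and 19 on day 14, and no such count of all genes is given beside these.

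Ephrin-A ligands, held in the membrane by a lipid anchor, bind EphA receptors on the neighbouring cell. Of the 5, 1 was called higher and 2 lower on day 1 against day 0, beside 33.1% and 37.1% of all genes. On day 14, 4 were higher and 0 lower (5 and 0 without day 7 replicate C), beside 37.4% and 32.1% of all genes. At an unadjusted edgeR p under 0.05 no member of this family was lower on day 14. Efna1 had 38.2, 34.2 and 35.0 CPM on day 0, 51.1, 51.7 and 52.6 CPM on day 1, and 41.6, 37.9 and 41.3 CPM on day 2. On day 4 Efna1 had 28.6, 29.8 and 27.0 CPM, on day 7 64.6, 60.6 and 26.4 CPM, and on day 14 52.2, 47.1 and 45.2 CPM. In CPM the day 1 libraries lay above and the day 4 libraries below all day 0 libraries. In TPM the day 4 libraries (34.82, 34.89 and 32.41 TPM) lay above day 0 (25.87 to 29.99 TPM). On day 7 replicate C was less than replicates A and B by more than the whole day 0 range. On day 1 against day 0 the log2 fold change was 0.53 ± 0.21 (SE, adjusted p = 0.0352 by edgeR), but leaving out any 1 library of day 0 or day 1 ended that call. Without day 7 replicate C it was 0.54 ± 0.07 (edgeR adjusted p = 3.54e-06). For Efna5 the libraries held 6.34, 6.01 and 6.11 CPM on day 0, 7.18, 8.73 and 8.70 CPM on day 1, and 18.1, 22.8 and 17.2 CPM on day 2. Then Efna5 was at 31.7, 34.6 and 31.8 CPM on day 4, 59.5, 63.2 and 27.1 CPM on day 7, and 68.8, 74.2 and 79.0 CPM on day 14. From day 1 on every library exceeded day 0, and the highest values were those of day 14. The fold change on day 14 against day 0 was 3.59 ± 0.24 (edgeR adjusted p = 1.95e-09).

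Efna4 was measured at 3.03, 3.03 and 4.57 CPM on day 0, 0.672, 0.556 and 1.63 CPM on day 1, and 2.67, 3.58 and 3.44 CPM on day 2. Efna4 values were 7.85, 9.65 and 9.23 CPM on day 4, 16.0, 17.9 and 14.8 CPM on day 7, and 14.4, 17.3 and 14.6 CPM on day 14. All day 1 libraries lay below day 0, and those of days 4, 7 and 14 above it. Efna4 fell by 1.87 ± 0.30 on day 1 and rose by 2.12 ± 0.27 on day 14 against day 0 (log2 with SE, edgeR adjusted p = 4.33e-05 and 3.25e-06). In TPM, which allows genes to be compared, Efna1 made up 53.9 ± 3.41% of the ephrin-A sum on day 14 and 84.1 ± 1.97% on day 0 (mean ± SD, n = 3 each), and Efna5 26.9 ± 2.38% and 5.05 ± 0.636%. The other members were scarcer: Efna2 ranged over 0.285 to 1.43 CPM and Efna3 over 0.248 to 4.43 CPM. Efna1 (chr3:89271733-89281142), Efna3 (chr3:89313899-89322965) and Efna4 (chr3:89333390-89338028) are neighbours on the minus strand of GRCm38, yet on day 1 against day 0 Efna3 fell by 2.27 ± 0.39 (edgeR adjusted p = 6.97e-05), as Efna4 was, and Efna1 was not.

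Ephrin-B ligands span the membrane and bind EphB receptors. Efnb2 had 26.8, 28.7 and 21.4 CPM on day 0, 22.8, 28.8 and 20.6 CPM on day 1, and 46.1, 62.6 and 42.3 CPM on day 2. On day 4 Efnb2 had 103, 103 and 97.1 CPM, on day 7 111, 112 and 149 CPM, and on day 14 118, 127 and 141 CPM. The first 2 days overlapped, day 2 lay above day 0, and from day 4 every library exceeded all of days 0 to 2. On day 14 against day 0 Efnb2, the partner of Ephb4, rose by 2.32 ± 0.17 (log2 with SE, edgeR adjusted p = 4.52e-09). For Efnb1 the libraries held 27.9, 22.5 and 26.7 CPM on day 0, 15.5, 17.5 and 16.2 CPM on day 1, and 26.5, 29.3 and 25.0 CPM on day 2. Then Efnb1 was at 44.2, 43.9 and 36.7 CPM on day 4, 63.2, 53.5 and 101 CPM on day 7, and 65.0, 63.4 and 68.9 CPM on day 14. Its day 1 values lay below day 0 and its day 4, 7 and 14 values above it. The day 14 difference from day 0 was 1.36 ± 0.18 (edgeR adjusted p = 3.91e-06). Efnb3 was measured at 0.142, 0.0360 and 0 CPM on day 0, 1.17, 0.642 and 0.979 CPM on day 1, and 2.52, 2.46 and 2.69 CPM on day 2. Efnb3 values were 0.285, 0.357 and 0.211 CPM on day 4, 0.0301, 0.177 and 0.375 CPM on day 7, and 0.186, 0.249 and 0.0326 CPM on day 14. Only on days 1 and 2 did all 3 libraries exceed 0.5 CPM, and day 2 was highest. Efnb3 rose on day 2 against day 0 by 5.34 ± 0.72 and fell on day 4 against day 2 by 3.14 ± 0.55 (log2 with SE, edgeR adjusted p = 5.27e-06 and 0.000290).

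EphA receptors are receptor tyrosine kinases. Epha2, on chr4:141301240-141329384 (plus strand), had the largest day 1 rise of the Eph receptors that held counts on day 0. The 300 bases around its RefSeq start site (chr4:141300971-141301270, GRCm38.p6, plus strand, 5′ to 3′) are shown for that reason, with motif matches in capitals.
Epha2: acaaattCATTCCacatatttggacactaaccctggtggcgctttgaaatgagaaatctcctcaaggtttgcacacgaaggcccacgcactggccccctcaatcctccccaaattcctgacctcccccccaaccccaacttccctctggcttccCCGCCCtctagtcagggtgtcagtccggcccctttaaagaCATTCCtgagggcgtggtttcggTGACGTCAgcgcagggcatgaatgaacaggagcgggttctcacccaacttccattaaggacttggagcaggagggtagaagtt
Motifs were searched on both strands in the same 300-base windows of the 55 tested members that RefSeq matched by symbol. The cAMP response element TGACGTCA, 33 bases before the start of Epha2, was in 1 of the 55 members' promoters and in 2.03% of all genes'. The AP-1 motif TGANTCA was in 3 members (8.97% of genes) and the TEAD motif GGAATG in 9 (16.6%), with a pair of matches in Epha2, where it reads CATTCC on the strand shown. The E-box CACGTG was in 5 (8.09%), the GC box GGGCGG in 41 (38.2%) and the HNF4 motif CAAAGTCCA in 0 (0.555%). The 55 members had passed the filter on low counts, whereas the percentages are of all 27025 genes with such a window, expressed or not, so the sets differ. A match is a run of letters and not evidence of binding.

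Epha2 had 1.94, 1.66 and 2.05 CPM on day 0, 153, 148 and 145 CPM on day 1, and 183, 168 and 174 CPM on day 2. On day 4 Epha2 had 138, 136 and 115 CPM, on day 7 43.1, 36.9 and 116 CPM, and on day 14 51.3, 57.9 and 61.6 CPM. Every culture library was far above the day 0 libraries, day 2 was highest, and on day 7 replicates A and B had come down to less than the day 14 values while replicate C lay in the day 4 range. The rise on day 1 against day 0 was 6.31 ± 0.38 and that on day 14 was 4.92 ± 0.37 (log2 with SE, edgeR adjusted p = 8.21e-10 and 6.23e-09). On day 7 against day 4 Epha2 fell by 0.99 ± 0.29 (edgeR adjusted p = 0.0126), or by 1.70 ± 0.10 without day 7 replicate C (edgeR adjusted p = 3.96e-09). That call was lost without day 7 replicate A (edgeR adjusted p = 0.0680) or B (0.0539), and in a fit of those 2 days alone (0.135). For Epha1 the libraries held 36.9, 44.0 and 41.1 CPM on day 0, 4.95, 6.12 and 6.82 CPM on day 1, and 9.30, 11.7 and 9.23 CPM on day 2. Then Epha1 was at 19.6, 19.5 and 20.04 CPM on day 4, 39.8, 41.9 and 18.3 CPM on day 7, and 44.4, 40.5 and 45.9 CPM on day 14. Epha1, the relative of Epha2 found in many epithelia, took the opposite course: day 1 libraries were below all others, and the day 14 libraries overlapped day 0. The fall on day 1 against day 0 was 2.77 ± 0.24 (edgeR adjusted p = 4.18e-08), and on day 14 the difference was 0.10 ± 0.22 (edgeR adjusted p = 0.690). With library sizes alone Epha1 was called higher on day 14, by 0.67 (edgeR adjusted p = 0.00994).

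In the EphA sum of TPM, Epha2 held 91.7 ± 1.32% on day 1 and 4.06 ± 1.60% on day 0, while Epha1 held 5.36 ± 0.932% and 82.7 ± 1.95% (mean ± SD, n = 3 each). By day 14 the pair was close to even, with 45.7 ± 2.69% and 44.2 ± 1.83%. Exons of Epha1 (chr6:42358487-42373268, minus strand) share 236 bases with Zyx, the gene of the focal adhesion protein zyxin, on the opposite strand, and strand use in the counting is not given in the sources used here. Zyx averaged 256 ± 12.3 CPM on day 1 and 68.9 ± 5.76 CPM on day 0, so its counts moved the other way; the part of shared reads in the Epha1 values was not tested. Epha4 was measured at 2.27, 1.55 and 1.44 CPM on day 0, 1.27, 0.856 and 0.435 CPM on day 1, and 4.20, 7.43 and 4.65 CPM on day 2. Epha4 values were 14.2, 16.0 and 12.6 CPM on day 4, 10.7, 12.6 and 17.3 CPM on day 7, and 15.0, 11.4 and 15.4 CPM on day 14. From day 2 all libraries exceeded day 0, and days 4, 7 and 14 overlapped one another. Epha4, a receptor that binds ephrins of both classes, rose on day 14 against day 0 by 2.99 ± 0.32 (edgeR adjusted p = 3.87e-07). Epha3 ranged over 0.0316 to 3.21 CPM and Epha7 over 1.64 to 7.02 CPM. Epha8 had 39 counts over the day 1 libraries and 0 on day 0, at least 11.2-fold higher on day 1 than a floor of 3 counts over 3 libraries.

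**Figure D2:**
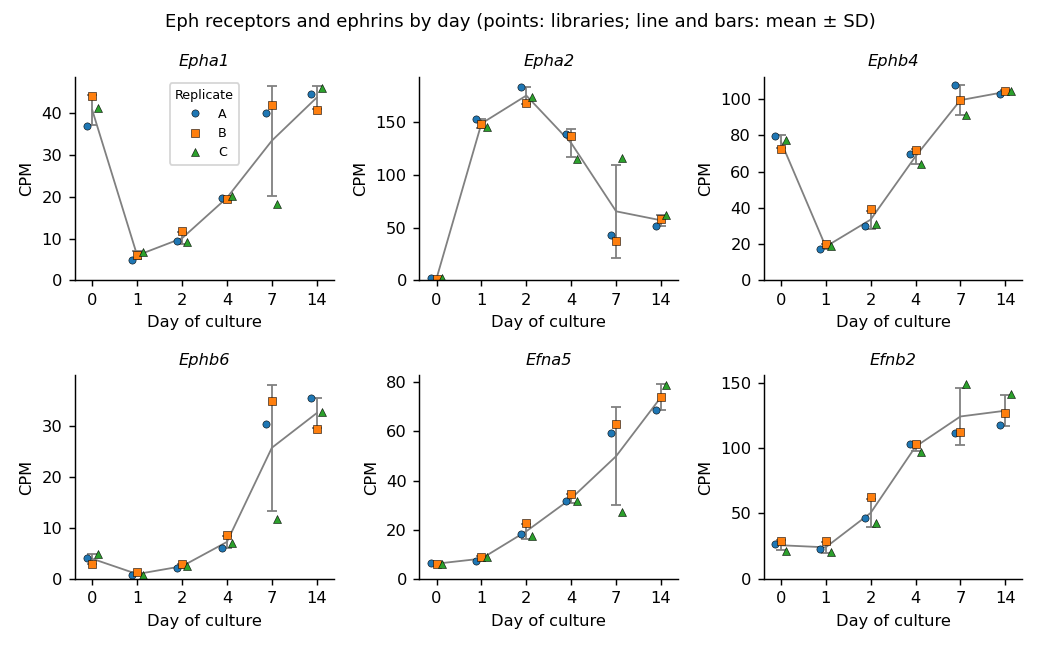
CPM of 6 Eph receptors and ephrins in each library by day (points, replicates A to C) with the mean ± SD (line and bars). Epha2 stood at 145 to 153 CPM on day 1 where Epha1 stood at 4.95 to 6.82 CPM, and day 7 replicate C lies apart from A and B in most panels.

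EphB receptors are the kinases that bind ephrin-B ligands. Of the 5 tested, 0 were higher and 4 lower on day 1 against day 0 (also 0 and 4 at an unadjusted edgeR p under 0.05), beside 33.1% and 37.1% of all genes. On day 14, 3 were higher and 1 lower, beside 37.4% and 32.1% of all genes. Ephb4 had 79.8, 72.7 and 77.7 CPM on day 0, 17.1, 20.03 and 18.8 CPM on day 1, and 30.2, 39.2 and 31.2 CPM on day 2. On day 4 Ephb4 had 69.5, 71.7 and 64.0 CPM, on day 7 108, 99.3 and 91.3 CPM, and on day 14 103, 105 and 104 CPM. The day 1 libraries were below all others, and those of days 7 and 14 above all others. Ephb4 fell on day 1 against day 0 by 2.04 ± 0.10 and rose on day 14 by 0.44 ± 0.10 (log2 with SE, edgeR adjusted p = 8.22e-11 and 0.000696). For Ephb6 the libraries held 3.98, 2.88 and 4.93 CPM on day 0, 0.778, 1.24 and 0.762 CPM on day 1, and 2.07, 2.88 and 2.43 CPM on day 2. Then Ephb6 was at 6.11, 8.51 and 7.04 CPM on day 4, 30.4, 34.9 and 11.7 CPM on day 7, and 35.3, 29.4 and 32.6 CPM on day 14. Ephb6, whose kinase domain is inactive, was below day 0 in all day 1 libraries and above it in all libraries of days 4, 7 and 14, with day 7 replicate C between day 4 and the other day 7 libraries. On day 14 against day 0 the rise was 3.05 ± 0.33 (edgeR adjusted p = 5.27e-07). Ephb3 was measured at 9.56, 7.89 and 8.52 CPM on day 0, 11.6, 10.1 and 9.46 CPM on day 1, and 11.5, 13.8 and 10.4 CPM on day 2. Ephb3 values were 16.7, 17.3 and 14.4 CPM on day 4, 12.02, 12.1 and 11.5 CPM on day 7, and 9.35, 9.33 and 11.2 CPM on day 14. The day 4 libraries were the highest and did not overlap day 0. Ephb3 was higher on day 4 against day 0 by 0.90 ± 0.14 (edgeR adjusted p = 1.88e-05). Ephb2 rose on day 14 against day 0 by 1.60 ± 0.23, and Ephb1 fell by 2.93 ± 0.63 (edgeR adjusted p = 1.08e-05 and 0.000644).

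Class 3 semaphorins are secreted and bind neuropilins, which carry the signal through plexins, except that Sema3e binds Plxnd1 directly. Beside 37.4% and 32.1% of all genes, 5 of the 7 were called higher and 1 lower on day 14 against day 0 (5 and 2 without day 7 replicate C). Their summed level was 286 ± 14.2 TPM on day 14 and 51.0 ± 2.20 TPM on day 0 (mean ± SD, n = 3 each). Sema3c had 40.2, 41.7 and 45.2 CPM on day 0, 224, 193 and 235 CPM on day 1, and 348, 398 and 334 CPM on day 2. On day 4 Sema3c had 543, 459.8 and 510.0 CPM, on day 7 458, 466 and 327 CPM, and on day 14 484, 537 and 525 CPM. Each day from 1 to 14 lay above day 0 in all libraries. Sema3c rose by 2.36 ± 0.13 on day 1 and by 3.61 ± 0.14 on day 14 against day 0 (log2 with SE, edgeR adjusted p = 2.99e-10 and 3.86e-12), and in TPM it had the highest mean of all 71 members on day 14, at 166 ± 9.04 TPM. For Sema3b the libraries held 98.6, 96.7 and 96.8 CPM on day 0, 30.1, 37.1 and 27.4 CPM on day 1, and 25.4, 20.6 and 16.5 CPM on day 2. Then Sema3b was at 28.0, 27.6 and 25.6 CPM on day 4, 83.5, 88.3 and 28.1 CPM on day 7, and 74.4, 72.2 and 74.0 CPM on day 14. In CPM the day 1, 2 and 4 libraries lay below day 0. Day 14 and replicates A and B of day 7 did too, by less. Day 7 replicate C stayed within the range of days 1 to 4. In TPM the later days lay on the other side of day 0 (33.58 to 37.74 TPM). There day 14 had 46.27, 43.48 and 47.23 TPM, and day 7 replicates A and B had 48.3 and 53.1 TPM. Sema3b fell on day 2 against day 0 by 2.23 ± 0.29 (edgeR adjusted p = 4.5e-06) and rose on day 7 against day 4 by 1.3 ± 0.29 (edgeR adjusted p = 0.00238), or by 1.67 ± 0.13 without day 7 replicate C (edgeR adjusted p = 5.67e-08). A fit of those 2 days alone did not call that rise (edgeR adjusted p = 0.0645).

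Sema3e, on chr5:14025276-14256689 (plus strand), was highest on day 1. The 300 bases around its start site (chr5:14025026-14025325, GRCm38.p6, plus strand) are shown because it had the largest day 1 rise of its class.
Sema3e: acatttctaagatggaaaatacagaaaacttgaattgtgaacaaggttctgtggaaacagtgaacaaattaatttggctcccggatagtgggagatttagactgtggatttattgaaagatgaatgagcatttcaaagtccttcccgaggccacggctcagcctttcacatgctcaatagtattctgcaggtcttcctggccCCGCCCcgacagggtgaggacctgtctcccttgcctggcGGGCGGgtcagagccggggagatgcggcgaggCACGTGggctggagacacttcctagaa
Capitals mark an E-box starting 24 bases after the start site and GC boxes 48 and 9 bases before it. Sema3e had 6.48, 7.74 and 4.67 CPM on day 0, 160.4, 189.8 and 125 CPM on day 1, and 74.3, 69.2 and 64.2 CPM on day 2. On day 4 Sema3e had 94.3, 92.5 and 98.2 CPM, on day 7 54.7, 59.0 and 68.6 CPM, and on day 14 66.9, 77.9 and 74.1 CPM. The day 1 libraries exceeded all others, and every culture library exceeded day 0. The rise on day 1 against day 0 was 4.64 ± 0.18 (edgeR adjusted p = 7.73e-12), followed by a fall on day 2 against day 1 of 1.19 ± 0.15 (edgeR adjusted p = 2.87e-05). For Sema3f the libraries held 7.53, 7.35 and 7.29 CPM on day 0, 13.8, 20.3 and 14.6 CPM on day 1, and 17.1, 21.4 and 16.2 CPM on day 2. Then Sema3f was at 65.5, 68.7 and 67.3 CPM on day 4, 73.5, 66.7 and 85.3 CPM on day 7, and 52.2, 62.7 and 63.7 CPM on day 14. Libraries of days 1 and 2 overlapped, and those of days 4, 7 and 14 stood above both. Sema3f rose on day 4 against day 2 by 1.88 ± 0.14 (edgeR adjusted p = 1.4e-07).

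Sema3a was measured at 0, 0 and 0 CPM on day 0, 0.177, 0 and 0.0725 CPM on day 1, and 0.127, 0 and 0 CPM on day 2. Sema3a values were 0.253, 0.130 and 0.0704 CPM on day 4, 3.82, 4.04 and 1.24 CPM on day 7, and 23.6, 15.7 and 19.5 CPM on day 14. It had 0 counts in all day 0 libraries and 274 and 1798 counts over the libraries of days 7 and 14, so it was at least 70.8-fold and at least 451-fold higher there than a floor of 3 counts over 3 libraries. Sema3a, the founding repellent of the class, was called higher against day 0 on days 7 and 14 (edgeR adjusted p = 7.28e-06 and 1.35e-07) and on day 14 against day 7 by 2.69 ± 0.48 (edgeR adjusted p = 0.00342). Sema3a, Sema3c, Sema3d and Sema3e lie on the same stretch of chromosome 5, between Sema3d (chr5:12383385-12588948) and Sema3c (chr5:17574281-17730268), where Sema3e was highest on day 1 and the others on day 14. Sema3d reached at most 2.05 CPM. Sema3g ranged over 2.54 to 17.97 CPM and fell on day 1 against day 0 by 2.36 ± 0.48 (edgeR adjusted p = 0.000412). Within the class, Sema3b held 16.0 ± 1.12% of the TPM on day 14 and 68.5 ± 1.79% on day 0, and Sema3c 57.9 ± 0.296% and 15.7 ± 1.49%.

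Semaphorins of classes 4 to 6 are transmembrane proteins, and Sema7a is held by a lipid anchor. Of the 13, 6 were higher and 5 lower on day 1 against day 0, beside 33.1% and 37.1% of all genes. On day 14, 6 were higher and 6 lower, beside 37.4% and 32.1% of all genes. Sema4a had 263, 239 and 274 CPM on day 0, 39.7, 43.8 and 37.0 CPM on day 1, and 20.7, 17.1 and 23.4 CPM on day 2. On day 4 Sema4a had 22.7, 18.2 and 20.4 CPM, on day 7 34.5, 37.1 and 18.4 CPM, and on day 14 21.8, 23.6 and 22.0 CPM. All culture libraries lay far below day 0, when Sema4a was the highest member in TPM (111 ± 8.22 TPM). Sema4a, which binds plexins and is best known from immune cells and retina, fell by 2.69 ± 0.20 on day 1 and by 3.53 ± 0.20 on day 14 against day 0 (log2 with SE, edgeR adjusted p = 6.56e-09 and 2.83e-10). For Sema4g the libraries held 11.3, 11.5 and 10.4 CPM on day 0, 1.42, 1.63 and 0.834 CPM on day 1, and 0.255, 0.336 and 0.303 CPM on day 2. Then Sema4g was at 0.221, 0.292 and 0.141 CPM on day 4, 0.932, 1.06 and 0.825 CPM on day 7, and 0.808, 0.712 and 0.586 CPM on day 14. The day 2 and day 4 libraries were the lowest, and none of the culture libraries reached day 0. Sema4g fell on day 4 against day 0 by 5.63 ± 0.29 and rose on day 7 against day 4 by 2.08 ± 0.30 (log2 with SE, edgeR adjusted p = 8.38e-11 and 0.000128).

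Sema4d was measured at 163, 171 and 163 CPM on day 0, 111, 149.6 and 116 CPM on day 1, and 87.1, 77.2 and 88.5 CPM on day 2. Sema4d values were 102, 92.2 and 88.9 CPM on day 4, 147, 123 and 102 CPM on day 7, and 126, 113 and 122 CPM on day 14. All culture libraries were below the day 0 libraries. Sema4d, the ligand of Plxnb1, fell on day 2 against day 0 by 0.98 ± 0.13 (edgeR adjusted p = 3.2e-06). Its smaller falls on days 7 and 14, of 0.42 ± 0.12 and 0.46 ± 0.12 (edgeR adjusted p = 0.00704 and 0.00355), became differences of 0.08 and 0.10 when library sizes alone set the scale, and limma on TPM did not call them. Sema6a had 9.85, 9.87 and 9.60 CPM on day 0, 30.03, 36.2 and 32.0 CPM on day 1, and 29.2, 35.9 and 33.6 CPM on day 2. On day 4 Sema6a had 65.0, 56.0 and 58.3 CPM, on day 7 64.4, 57.0 and 82.6 CPM, and on day 14 57.7, 64.1 and 62.4 CPM. Every culture library exceeded day 0, and days 4, 7 and 14 exceeded days 1 and 2. Sema6a, a ligand of A-type plexins, rose by 2.65 ± 0.13 on day 14 against day 0 (edgeR adjusted p = 4.65e-11). For Sema4f the libraries held 0, 0 and 0 CPM on day 0, 1.06, 0.899 and 0.580 CPM on day 1, and 0.955, 0.896 and 0.370 CPM on day 2. Then Sema4f was at 2.21, 1.72 and 1.13 CPM on day 4, 2.07, 1.03 and 8.55 CPM on day 7, and 1.96, 1.46 and 2.97 CPM on day 14. With 0 counts in all day 0 libraries, Sema4f had 67 counts over the day 1 libraries and 195 over those of day 14, at least 19.3-fold and at least 48.9-fold higher than a floor of 3 counts over 3 libraries. Day 7 replicate C was the highest library. Its calls on days 1 and 14 had edgeR adjusted p = 0.00111 and 9.88e-05, and limma on log2(TPM + 1) did not make the first.

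Among the remaining 8 of these semaphorins, Sema5a ranged over 9.19 to 43.9 CPM and fell on day 4 against day 0 by 1.94 ± 0.27 (edgeR adjusted p = 8.43e-06). Sema4b and Sema4c were higher on day 14 against day 0 by 0.73 ± 0.12 and 2.19 ± 0.34 (log2 with SE, edgeR adjusted p = 3.7e-05 and 2.85e-05). Sema6b had 2.99, 3.10 and 3.20 CPM on day 2, its highest day, against 0.710, 0.864 and 1.13 CPM on day 0. Sema7a, which signals through integrins and Plxnc1, had 2.23, 5.69 and 3.84 CPM on day 1, its highest day, against 0.568, 0.504 and 0.411 CPM on day 0, and neither gene's groups overlapped. Sema6d had 0.839, 1.18 and 1.56 CPM on day 14, against 4.88, 3.71 and 3.49 CPM on day 0, with no overlap between those days. Sema5b and Sema6c reached at most 1.90 and 2.02 CPM. The sum over the 13 genes was 119 ± 3.83 TPM on day 14 and 179 ± 6.23 TPM on day 0 (mean ± SD, n = 3 each), and Sema4a made up 14.0 ± 0.546% and 62.0 ± 2.53% of it.

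**Figure D3:**
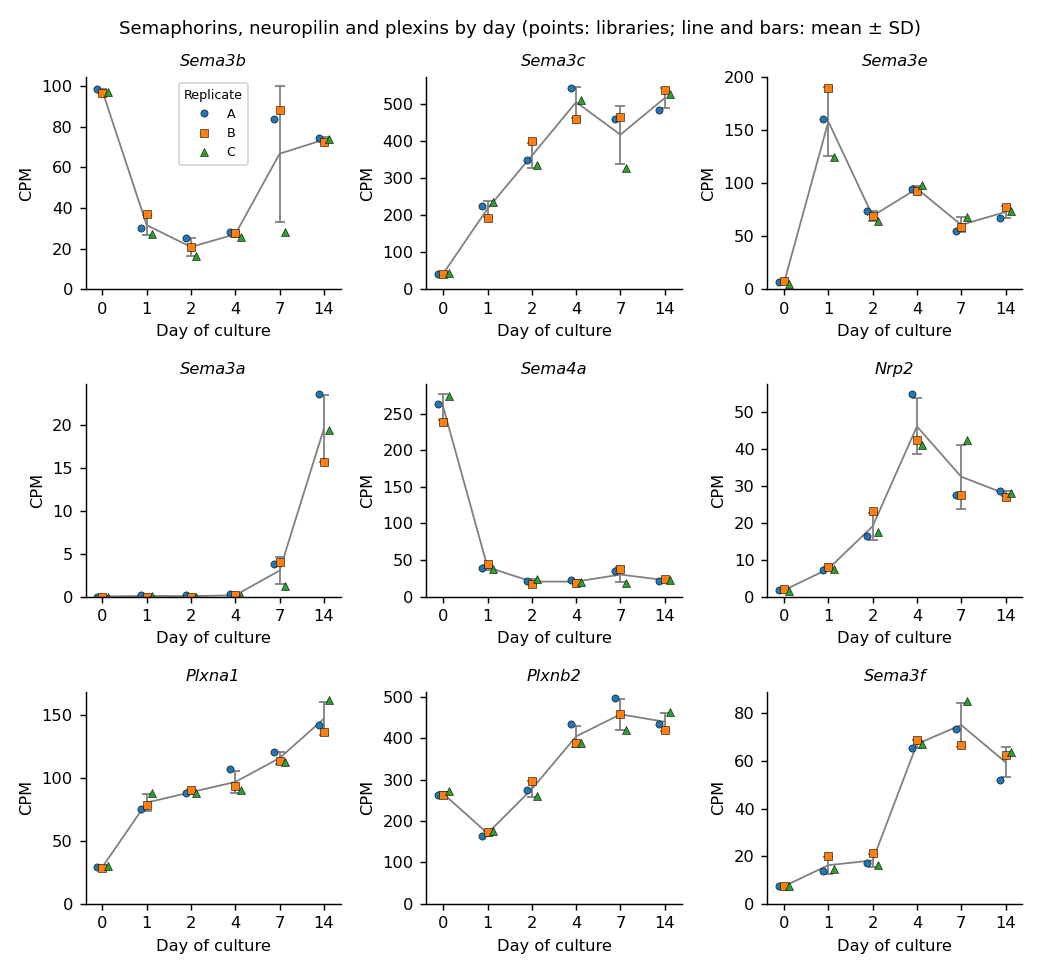
CPM of 9 semaphorins, neuropilins and plexins in each library by day (points, replicates A to C), with the mean ± SD (line and bars). Sema3c and Plxna1 lie above day 0 on every culture day and Sema4a below it, while Sema3a stays under 0.3 CPM until day 4 and reaches 15.7 to 23.6 CPM on day 14.

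Neuropilins bind class 3 semaphorins and vascular endothelial growth factors but signal through partners. Nrp1 had 81.7, 94.2 and 60.6 CPM on day 0, 75.3, 81.4 and 68.9 CPM on day 1, and 78.4, 114 and 80.3 CPM on day 2. On day 4 Nrp1 had 183, 171 and 164 CPM, on day 7 76.1, 69.2 and 184 CPM, and on day 14 74.9, 96.6 and 98.5 CPM. The day 4 libraries exceeded all others except day 7 replicate C, which was as high, and the other days overlapped. Nrp1 was higher on day 4 against day 0 by 1.13 ± 0.29 (edgeR adjusted p = 0.00214). On day 7 against day 4 the difference was -0.65 ± 0.28 (edgeR adjusted p = 0.0824), and without day 7 replicate C it was -1.25 ± 0.18 (edgeR adjusted p = 3.14e-05). For Nrp2 the libraries held 1.66, 1.94 and 1.64 CPM on day 0, 7.18, 8.002 and 7.36 CPM on day 1, and 16.5, 23.3 and 17.5 CPM on day 2. Then Nrp2 was at 55.0, 42.4 and 41.2 CPM on day 4, 27.6, 27.5 and 42.5 CPM on day 7, and 28.6, 27.1 and 28.0 CPM on day 14. Day 0 was below all culture libraries and day 4 was highest, with day 7 replicate C inside the day 4 range. Nrp2, which binds Sema3f and Sema3c, rose by 4.71 ± 0.21 on day 4 and by 3.99 ± 0.20 on day 14 against day 0 (log2 with SE, edgeR adjusted p = 1.48e-11 and 7e-11). In TPM, Nrp1 stayed the higher of the pair, at 44.9 ± 6.58 against 8.08 ± 0.318 TPM on day 14 (mean ± SD, n = 3).

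Plexins are the semaphorin receptors. Of the 9, 3 were higher and 2 lower on day 1 against day 0, beside 33.1% and 37.1% of all genes. On day 14, 6 were higher and 1 lower, beside 37.4% and 32.1% of all genes. Plxnb2 had 262, 264 and 272 CPM on day 0, 163, 172 and 175 CPM on day 1, and 274, 298 and 259.8 CPM on day 2. On day 4 Plxnb2 had 435, 389 and 389.6 CPM, on day 7 496, 458 and 420.2 CPM, and on day 14 435, 421 and 464 CPM. Day 1 was below day 0 and days 4, 7 and 14 were above it in all libraries, whereas day 2 overlapped day 0. Plxnb2, a receptor of class 4 semaphorins and the most abundant plexin in TPM on each day (144 ± 12.9 TPM on day 14 and 49.97 ± 2.47 TPM on day 0), fell by 0.64 ± 0.08 on day 1 and rose by 0.73 ± 0.08 on day 14 (log2 with SE, edgeR adjusted p = 2.21e-06 and 4.94e-07). For Plxna1 the libraries held 28.9, 28.5 and 30.4 CPM on day 0, 75.2, 78.6 and 87.8 CPM on day 1, and 87.8, 90.6 and 87.8 CPM on day 2. Then Plxna1 was at 107, 93.6 and 90.3 CPM on day 4, 121, 114 and 113 CPM on day 7, and 142, 137 and 162 CPM on day 14. Every culture library exceeded day 0, and the day 14 libraries exceeded all others. Plxna1, a partner of neuropilins, rose by 1.46 ± 0.08 on day 1 and by 2.33 ± 0.09 on day 14 against day 0 (edgeR adjusted p = 4.75e-10 and 2.86e-12).

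Plxnb1 was measured at 35.9, 35.9 and 42.4 CPM on day 0, 11.4, 14.8 and 11.2 CPM on day 1, and 24.8, 33.8 and 22.1 CPM on day 2. Plxnb1 values were 53.0, 53.0 and 44.0 CPM on day 4, 81.3, 78.6 and 73.8 CPM on day 7, and 83.1, 73.4 and 81.0 CPM on day 14. Day 1 was the lowest day and days 7 and 14 the highest, and neither overlapped day 0. Plxnb1, the Sema4d receptor, fell by 1.61 ± 0.15 on day 1 and rose by 1.06 ± 0.14 on day 14 (log2 with SE, edgeR adjusted p = 9.58e-08 and 6.54e-06). Its fall of 0.50 ± 0.14 on day 2 against day 0 (edgeR adjusted p = 0.00512) became 0.01 with library sizes alone and 0.02 with limma on TPM. Plxna3 had 1.09, 1.40 and 1.28 CPM on day 0, 0.637, 1.75 and 1.56 CPM on day 1, and 1.75, 2.502 and 1.95 CPM on day 2. On day 4 Plxna3 had 2.85, 3.77 and 2.54 CPM, on day 7 6.64, 5.14 and 7.13 CPM, and on day 14 10.1, 10.04 and 10.5 CPM. Days 0 and 1 overlapped, and the day 14 libraries were above all others. Plxna3 rose on day 14 against day 0 by 3.01 ± 0.29 (edgeR adjusted p = 1.4e-07). Plxna4 had 0.249, 0.356 and 0.326 CPM on day 14, against 2.51, 1.98 and 2.36 CPM on day 0, a fall of 2.86 ± 0.53 (log2 with SE, edgeR adjusted p = 0.000147). Plxnd1, the Sema3e receptor, had 11.97, 13.2 and 10.4 CPM on day 2, against 5.06, 5.73 and 6.11 CPM on day 0, and was higher by 1.07 ± 0.23 (edgeR adjusted p = 0.000470). Plxna2 ranged over 14.7 to 30.8 CPM. Plxnb3 had 25 counts over the day 14 libraries and 2 over those of day 0, a ratio of 9.40 with an exact 95% interval of 2.34 to 81.9 that covers counting error only.

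Netrins are secreted proteins related to laminins. Ntn4, which binds laminin in basement membranes, lies on chr10:93640681-93747207 (plus strand), and the 300 bases around its RefSeq start site (chr10:93640799-93641098, GRCm38.p6, plus strand) are shown because it fell and came back.
Ntn4: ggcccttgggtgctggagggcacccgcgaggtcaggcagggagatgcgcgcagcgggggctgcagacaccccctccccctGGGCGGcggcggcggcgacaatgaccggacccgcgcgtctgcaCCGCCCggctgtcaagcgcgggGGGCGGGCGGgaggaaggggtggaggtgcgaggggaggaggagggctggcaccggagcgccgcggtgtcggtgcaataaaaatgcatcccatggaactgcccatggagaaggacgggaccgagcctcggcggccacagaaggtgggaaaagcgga
Only GC boxes matched, starting 170, 127, 105 and 101 bases before the start site, and the last pair overlap. Ntn4 had 156, 140.1 and 138 CPM on day 0, 40.0, 46.8 and 32.6 CPM on day 1, and 23.9, 20.5 and 21.9 CPM on day 2. On day 4 Ntn4 had 16.7, 16.3 and 14.7 CPM, on day 7 177, 180.1 and 39.8 CPM, and on day 14 228, 163 and 189.6 CPM. Days 1, 2 and 4 lay below all day 0 libraries, day 14 lay above them, and on day 7 replicates A and B were above day 0 while replicate C was at the level of day 1. Ntn4 fell on day 4 against day 0 by 3.19 ± 0.38 and rose on day 7 against day 4 by 3.06 ± 0.38 (log2 with SE, edgeR adjusted p = 1.46e-06 and 4.43e-05). Without day 7 replicate C the rise was 3.49 ± 0.14 (edgeR adjusted p = 1.78e-10). On day 14 against day 0 Ntn4 differed by 0.42 ± 0.35 (edgeR adjusted p = 0.299), and without that library it was called higher by 0.42 ± 0.12 (edgeR adjusted p = 0.00511), as it was by 0.98 with library sizes alone (edgeR adjusted p = 0.0149). In TPM it reached 95.8 ± 15.0 on day 14, against 40.3 ± 3.10 on day 0 (mean ± SD, n = 3 each).

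For Ntn1 the libraries held 40.6, 46.5 and 39.3 CPM on day 0, 20.3, 26.4 and 23.3 CPM on day 1, and 11.3, 10.2 and 13.4 CPM on day 2. Then Ntn1 was at 9.24, 6.27 and 7.15 CPM on day 4, 5.50, 5.38 and 10.5 CPM on day 7, and 3.98, 5.13 and 4.76 CPM on day 14. The day 0 libraries were highest, day 1 came next without overlap, and day 14 was lowest. Ntn1, the netrin that attracts or repels axons through Dcc and Unc5 receptors, fell on day 14 against day 0 by 3.19 ± 0.24 (edgeR adjusted p = 7.08e-09). Ntn3 was measured at 0.805, 0.576 and 0.411 CPM on day 0, 0.283, 0.556 and 0.326 CPM on day 1, and 0.637, 0.448 and 0.269 CPM on day 2. Ntn3 values were 0.0949, 0.195 and 0.141 CPM on day 4, 0.541, 0.213 and 0.338 CPM on day 7, and 0.497, 0.356 and 0.391 CPM on day 14. All day 4 libraries were below day 0, and Ntn3 fell on that day against day 0 by 2.03 ± 0.47 (edgeR adjusted p = 0.00110). Dcc, another netrin receptor, was listed at 0 counts in 16 of the 18 libraries, and was not tested.

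Unc5 receptors bind netrins and carry a death domain. Unc5b had 3.93, 4.21 and 2.98 CPM on day 0, 6.37, 8.601 and 6.53 CPM on day 1, and 5.28, 7.73 and 6.26 CPM on day 2. On day 4 Unc5b had 9.08, 10.4 and 8.52 CPM, on day 7 10.6, 12.7 and 15.6 CPM, and on day 14 22.5, 27.1 and 22.5 CPM. All culture libraries exceeded day 0, and day 14 exceeded all others. For Unc5c the libraries held 9.18, 7.78 and 8.37 CPM on day 0, 1.49, 2.31 and 1.20 CPM on day 1, and 1.496, 1.16 and 1.04 CPM on day 2. Then Unc5c was at 0.759, 0.682 and 0.247 CPM on day 4, 0.180, 0.0708 and 0.863 CPM on day 7, and 0.0932, 0.178 and 0 CPM on day 14. Unc5c moved the other way, with every culture library below day 0. Unc5b rose by 2.69 ± 0.20 and Unc5c fell by 6.51 ± 0.73 on day 14 against day 0 (log2 with SE, edgeR adjusted p = 5.29e-09 and 7.66e-07). Unc5b made up 95.3 ± 2.66% of the Unc5 TPM on day 14 and 37.5 ± 5.28% on day 0, and Unc5c 0.220 ± 0.196% and 58.3 ± 5.75%. Unc5a was measured at 0.142, 0.144 and 0.205 CPM on day 0, 0.142, 0.342 and 0.326 CPM on day 1, and 0.159, 0.336 and 0.168 CPM on day 2. Unc5a values were 0.285, 0.195 and 0.352 CPM on day 4, 0.120, 0.106 and 1.13 CPM on day 7, and 0.186, 0.178 and 0.358 CPM on day 14. Days overlapped and no day was called against day 0.

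Slits are secreted ligands of Robo receptors. Slit2 had 47.6, 60.1 and 47.8 CPM on day 0, 5.55, 8.34 and 4.75 CPM on day 1, and 8.15, 10.3 and 8.05 CPM on day 2. On day 4 Slit2 had 9.56, 8.19 and 8.42 CPM, on day 7 14.5, 15.4 and 8.07 CPM, and on day 14 16.6, 10.2 and 19.6 CPM. All culture libraries were below day 0. Slit2 fell by 3.06 ± 0.28 on day 1 and by 1.75 ± 0.26 on day 14 against day 0 (log2 with SE, edgeR adjusted p = 8.74e-08 and 2.09e-05). For Slit3 the libraries held 1.56, 1.48 and 2.00 CPM on day 0, 0.743, 1.07 and 0.290 CPM on day 1, and 1.43, 2.39 and 0.808 CPM on day 2. Then Slit3 was at 0.759, 0.682 and 0.247 CPM on day 4, 0.421, 0.0354 and 0.375 CPM on day 7, and 0.155, 0.427 and 0.228 CPM on day 14. Days 0 and 2 overlapped, and the other days lay below day 0. The fall of Slit3 on day 14 against day 0 was 2.63 ± 0.64 (edgeR adjusted p = 0.00163), which limma on log2(TPM + 1) with no filter did not call.

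Robo1 and Robo2 are receptors of neurons and many epithelia, and Robo4 is the endothelial one. Robo2 had 8.66, 10.7 and 6.98 CPM on day 0, 4.28, 4.11 and 2.21 CPM on day 1, and 6.27, 12.2 and 6.03 CPM on day 2. On day 4 Robo2 had 5.35, 4.71 and 2.82 CPM, on day 7 3.40, 3.15 and 6.94 CPM, and on day 14 1.90, 2.07 and 2.22 CPM. In CPM days 0 and 2 overlapped, and days 1, 4, 7 and 14 lay below day 0. In TPM days 4, 7 and 14 overlapped day 0 (2.1 to 3.36 TPM), with 0.62, 2.83 and 1.01 TPM on day 14. Robo2 fell on day 14 against day 0 by 2.10 ± 0.38 (edgeR adjusted p = 0.000118), a call not made by limma on log2(TPM + 1) with no filter. Podocyte markers moved beside Robo2: of 8, 0 were higher and 8 lower on days 1 and 14 against day 0, and on day 2 there were 0 higher and 5 lower (edgeR). Their summed level over the libraries was 126 to 162 TPM on day 0, 60.2 to 85.7 TPM on day 1, 71.4 to 158 TPM on day 2, 77.8 to 115 TPM on day 4, 69.0 to 141 TPM on day 7 and 57.2 to 75.2 TPM on day 14. None of the 8 was at 0 TPM on any day, and the part of podocytes in the Robo2 values was not tested. For Robo1 the libraries held 1.99, 2.67 and 1.18 CPM on day 0, 3.08, 5.22 and 2.90 CPM on day 1, and 4.39, 6.91 and 3.64 CPM on day 2. Then Robo1 was at 5.09, 3.31 and 3.17 CPM on day 4, 5.29, 4.92 and 7.62 CPM on day 7, and 10.2, 9.08 and 12.2 CPM on day 14. Every culture library exceeded day 0, day 14 was highest and did not overlap the other days. The rise on day 14 against day 0 was 2.41 ± 0.34 (edgeR adjusted p = 9.41e-06). In TPM Robo1 took 61.1 ± 15.8% of the family on day 14 and 5.77 ± 2.08% on day 0. In day 14 replicate B, however, Robo2 was above Robo1, at 2.83 and 2.17 TPM. Robo2 had 61, 58 and 68 counts in the day 14 libraries, so its TPM did not follow its counts there. Robo3 had 0.0621, 0.0356 and 0.195 CPM on day 14, against 2.84, 1.69 and 1.54 CPM on day 0, and fell on all 5 days.

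Robo4 was measured at 3.98, 4.68 and 4.57 CPM on day 0, 22.4, 23.4 and 13.6 CPM on day 1, and 12.9, 11.7 and 9.40 CPM on day 2. Robo4 values were 1.61, 1.85 and 0.986 CPM on day 4, 0.150, 0.283 and 2.55 CPM on day 7, and 0.0932, 0 and 0.0652 CPM on day 14. Days 1 and 2 lay above day 0, the later days below it, and day 7 replicate C exceeded the other day 7 libraries. Robo4 rose on day 1 against day 0 by 2.17 ± 0.57 and fell on day 14 by 6.22 ± 0.92 (log2 with SE, edgeR adjusted p = 0.00290 and 1.59e-05). Its neighbour Robo3 lies 553 bases away on the opposite strand (Robo4 chr9:37401897-37415115, Robo3 chr9:37415669-37433246, GRCm38) and fell on day 1 against day 0 by 2.55 ± 0.37 (edgeR adjusted p = 1.26e-05). Of 10 endothelial markers, 5 were higher and 1 lower on day 1 against day 0, and all 10 were lower on day 14, as Robo4 was. On day 2, when Robo4 lay above day 0, 1 marker was higher and 3 lower, with a median log2 fold change of -0.27. Their summed level over the libraries was 95.6 to 99.3 TPM on day 0, 120 to 187 TPM on day 1, 96.9 to 142 TPM on day 2, 47.5 to 58.3 TPM on day 4, 50.3 to 59.5 TPM on day 7 and 29.2 to 31.8 TPM on day 14. The median log2 fold change of the 10 on day 14 against day 0 was -5.61. Of the day 14 sum, Egfl7 held 24.2 TPM and Esam 4.20 TPM on average, whereas Pecam1 was at 0.240 TPM, Cdh5 at 0.113 TPM and Tie1 at 0.0133 TPM, and none of the 10 was at 0 in all 3 libraries of a day. The part of endothelial cells in the Robo4 values was not tested.

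**Figure D4:**
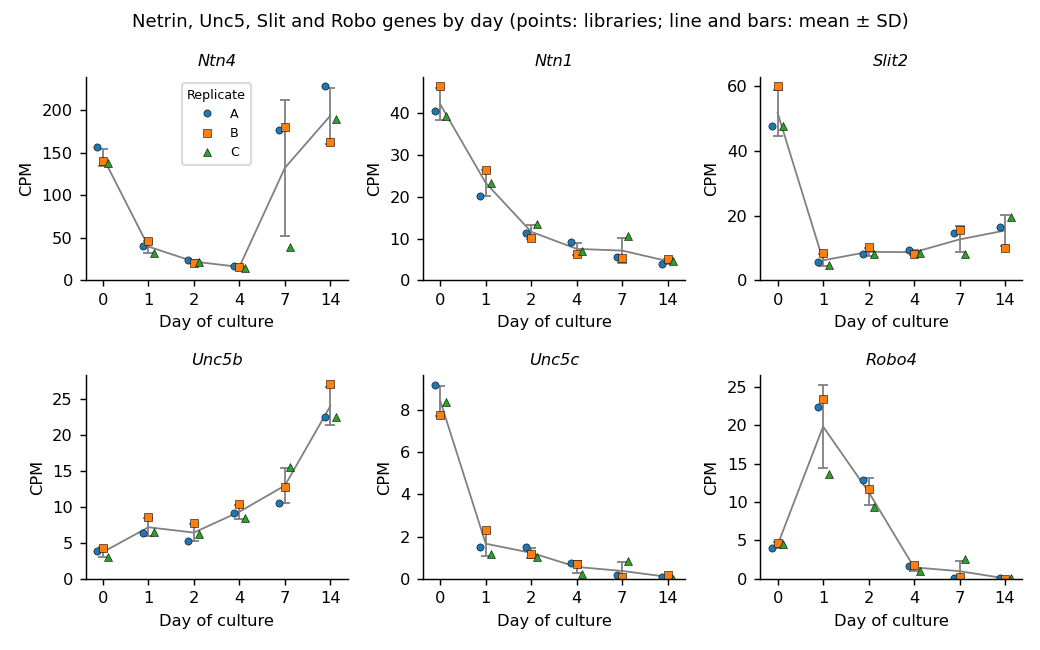
CPM of 6 netrin, Unc5, Slit and Robo genes in each library by day (points, replicates A to C), with the mean ± SD (line and bars). Ntn4 and Robo4 change direction, with Ntn4 at 163 to 228 CPM and Robo4 at 0 to 0.0932 CPM on day 14, while Unc5b climbs and Ntn1 and Unc5c decline.

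**Figure D5:**
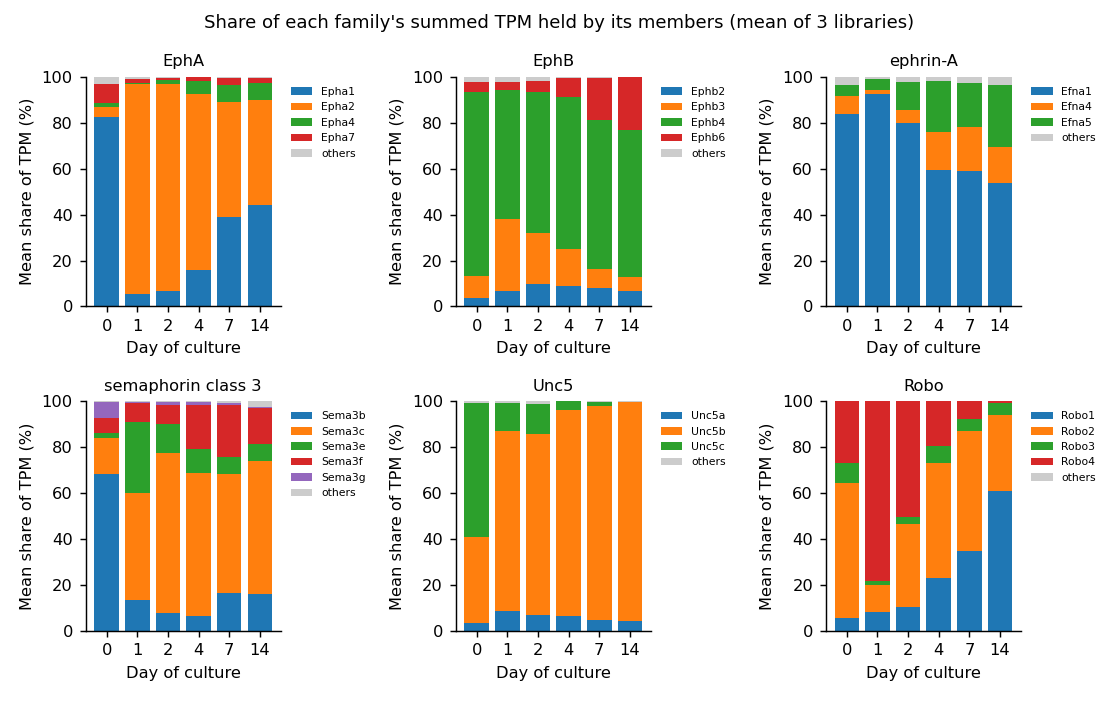
Mean share (%, n = 3) of each family's summed TPM held by its members on each day, for 6 families. On day 14 Sema3c, Unc5b and Robo1 hold the largest mean shares of their families, and Epha2 and Epha1 are close to even. On day 0 Sema3b, Unc5c, Robo2 and Epha1 hold the largest, and Ephb4 and Efna1 hold the largest on both days. In day 14 replicate B Robo2 held more than Robo1.

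The 9 members that were not tested were Epha10, Epha5, Epha6, Ntn5, Slit1, Unc5d and the antisense genes Plxna4os1, Plxna4os2 and Plxna4os3, with 0 to 35 counts each over the 18 libraries. Epha10, Plxna4os2 and Plxna4os3 had 0 counts in all 18, which allows up to 3 counts. Overlaps with genes on the opposite strand also touch Plxna1, Efna3, Efna4 and Plxnb1, and the partners Gm26811, Gm15998, 4731419I09Rik and Gm7628 each averaged under 0.2 CPM on every day. Such overlaps were also found for Sema4c (334 bases), Ephb1 (152), Ntn3 (139), Unc5c (118), Unc5a (34) and Ephb4 (33), whose partners' levels are not given here. Plxna4 shares 110 bases with Plxna4os3. The part of shared reads in these members' values was not tested.

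Genes that relay these signals, or modify them, were read from a list of 47 other guidance genes, of which 44 were tested. Against day 0, 16 were higher and 8 lower on day 1 (36.4% and 18.2% of those tested, beside 33.1% and 37.1% of all genes), and 30 were higher and 6 lower on day 14 (68.2% and 13.6%, beside 37.4% and 32.1%). On days 2, 4 and 7 the counts were 21 and 9, 27 and 7, and 32 and 6, beside 38.9% and 35.3%, 38.1% and 36.8%, and 37.6% and 32.1% of all genes. The median log2 fold changes were 0.25, 0.53, 0.78, 1.14 and 0.96 on days 1, 2, 4, 7 and 14, beside -0.01, 0.14, 0.08, 0.16 and 0.16 for all genes. Without day 7 replicate C the counts on day 1 were 21 and 10, and the shares of all genes in that fit are not given here.

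Rnd1 had 37.1, 33.1 and 42.2 CPM on day 1, against 1.14, 0.720 and 1.33 CPM on day 0, and rose by 5.16 ± 0.37 (log2 with SE, edgeR adjusted p = 5.88e-09). Rnd1 encodes a protein that binds the plexin cytoplasmic domain. Srgap1 had 17.8, 18.9 and 19.3 CPM on day 1, against 1.75, 1.19 and 0.770 CPM on day 0, and rose by 3.90 ± 0.22 (log2 with SE, edgeR adjusted p = 4.07e-10). Srgap1 is a GTPase-activating protein that works behind Robo receptors. Flrt3 had 46.8, 35.4 and 56.7 CPM on day 14, against 1.47, 0.828 and 1.80 CPM on day 0, and rose by 5.11 ± 0.26 (log2 with SE, edgeR adjusted p = 5.58e-11). Flrt3 is a membrane protein that binds Unc5b. L1cam had 312, 278 and 319.8 CPM on day 14, against 35.4, 27.8 and 35.5 CPM on day 0, and rose by 3.21 ± 0.38 (log2 with SE, edgeR adjusted p = 1.39e-06). L1cam is an adhesion molecule and a co-receptor for Sema3a with Nrp1. Dpysl2 had 61.4, 69.2 and 66.1 CPM on day 4, against 8.71, 9.47 and 8.47 CPM on day 0, and rose by 2.88 ± 0.25 (log2 with SE, edgeR adjusted p = 3.01e-08). Dpysl2 encodes a collapsin response mediator.

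Cfl1 had 952, 1035 and 1025 CPM on day 14, against 447, 408 and 453 CPM on day 0, and rose by 1.20 ± 0.11 (log2 with SE, edgeR adjusted p = 1.03e-07). Cfl1 is cofilin, the actin-severing protein. Neo1 had 95.4, 88.7 and 99.3 CPM on day 14, against 64.1, 64.8 and 57.3 CPM on day 0, and rose by 0.61 ± 0.08 (log2 with SE, edgeR adjusted p = 8.08e-06). Neo1 is a receptor for netrins and repulsive guidance molecules. Met had 425, 451 and 396 CPM on day 1, against 191, 194 and 174 CPM on day 0, and rose by 1.19 ± 0.08 (log2 with SE, edgeR adjusted p = 4.27e-09). Met is the receptor of hepatocyte growth factor and couples to B-type plexins. On the falling side were ephexin, a binding partner of EphA4 encoded by Ngef, and Flrt1. Ngef had 12.8, 12.9 and 13.6 CPM on day 14, against 75.8, 87.2 and 74.6 CPM on day 0, and fell by 2.60 ± 0.23 (log2 with SE, edgeR adjusted p = 3.84e-08). Flrt1 had 3.05, 2.17 and 2.44 CPM on day 14, against 43.5, 43.3 and 43.4 CPM on day 0, and fell by 4.08 ± 0.49 (log2 with SE, edgeR adjusted p = 1.73e-06).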

How the data were processed

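Bulk polyA RNA of 18 mouse libraries was sequenced. The authors deposited RSEM estimated counts and TPM per gene for each library. Per the submitters' processing notes, cutadapt 2.3, FastQC 0.11.8, STAR 2.7.8a, RSEM 1.3.3 and the genome build GRCm38 were used. Which annotation release and strand setting were used is not given in the sources used here.

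From these files, estimated counts were rounded to whole numbers, and 5 reporter transgenes were left out. Depth was 23799559 to 37579097 counts per library, and intervals cover counting error only. In edgeR 4.0.16 (R 4.3.3), TMM scaling, filterByExpr and 1 quasi-likelihood model of 6 day means tested 18754 genes. P-values were Benjamini-Hochberg adjusted over all of them, and an adjusted p under 0.05 was called higher or lower. A standard error is the log2 fold change divided by the square root of its F. The procedure was tested on simulated counts with a small set of changed genes, balanced in direction, and no outlying library. In these data 89.8% of the genes tested differed among the days, so that simulation cannot decide whether the scaling holds here. Alternatives were DESeq2 1.42.0, limma 3.58.1 on log2(TPM + 1) or log2(TPM + 0.1) for genes with a mean TPM of at least 0.5 or with no such filter, other scalings, a replicate block, a fold of 2, and each library left out. Libraries of the same day were compared as replicates, and their counts differed by more than sampling noise in every pair. That cannot tell separate animals or cultures from repeated preparations of 1 sample.

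Every library's value is given, per family, for up to 3 members with the highest mean TPM and up to 2 with the largest change at 1 TPM or more. Members and lists were chosen with earlier results of these data known, and other genes named were chosen after their values were seen. Gene positions are those of the GENCODE vM21 annotation of GRCm38. Promoters are from RefSeq (GRCm38.p6).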

Additional observations from a re-analysis of the deposited data

How the results depend on the processing

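Of 28 alternative analyses, 18 left out a library each. Of 156 named calls against day 0, DESeq2 size factors and DESeq2's Wald test kept 151 each, the absence of a filter 155 and the test against a fold of 2 111. Whether a replicate letter marks a shared preparation across days is not known. Deviations from the day means correlated above 0.1 in 8 of 45 pairs with the same letter. The median was 0.0247 and the highest 0.423, against -0.00794 and 0.292 in the 90 pairs with different letters. With 3 libraries per day these values cannot decide it. With the replicate block 155 of the 156 calls held, that of Efna1 on day 7 was lost, and on day 7 against day 0 29 members were higher and 17 lower.

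Tested against a fold of 2, higher and lower counts against day 0 were 13 and 14 on day 1, 15 and 14 on day 2, 12 and 14 on day 4, 21 and 11 on day 7, and 23 and 15 on day 14. Of all genes this test called 13.7% and 18.2%, 17.8% and 19.9%, 18% and 21.9%, 16.0% and 17.4%, and 15.2% and 17.6%. Between successive days the members' counts were 1 and 1, 1 and 4, 4 and 0, and 0 and 0, beside 2.17% and 3.43%, 1.73% and 4.70%, 1.65% and 0.395%, and 0.155% and 0.400% of all genes, where unadjusted edgeR p under 0.05 gave 8 and 1 on day 7 against day 4, and 1 and 1 on day 14 against day 7. On limma's log2(TPM + 1) scale the lower counts against day 0 were 16, 10, 8, 5 and 7, with log2(TPM + 0.1) 15, 10, 8, 5 and 8, and with no filter 15, 11, 13, 10 and 9. Lower counts on day 4 against day 2 were 4, 4 and 7 in these 3 analyses, and 3 in each on day 7 against day 4. On day 14 against day 7 limma called 7 higher with log2(TPM + 1) and 0 lower in all 3 (2, 3 and 2 lower at an unadjusted p under 0.05), where DESeq2 called 5 lower. Fits of the compared days alone gave 17 lower on day 4 against day 2, 12 higher and 2 lower on day 7 against day 4, and 1 higher and 0 lower on day 14 against day 7 (9 and 5 at an unadjusted edgeR p under 0.05). The cause was not tested. Member counts of limma, DESeq2, the compared days alone, the replicate block and each library left out stand here without the shares of all genes.

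Plxnb1 on day 2 against day 0 reversed to 0.01 with library sizes alone and 0.02 in the 3 limma fits, and Sema4d to 0.08 on day 7 and 0.10 on day 14 with library sizes alone. Leaving out 1 library gave 6 to 18 lower members on day 4 against day 2 (6 without day 2 replicate A, 18 without day 7 replicate C). On day 7 against day 4 it gave 2 to 10 lower (2 without day 7 replicate A or B, 3 without day 4 replicate A or B, 10 without day 7 replicate C). On day 14 against day 7 it gave 2 to 5 higher (5 without day 7 replicate C) and 1 to 6 lower (1 without day 14 replicate A or B). Against day 0 each count stayed within 1.5 times its value when 1 library was left out. Members at a few counts per library, such as Efnb3, Unc5a and Ntn3, are limited by depth.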
